A study of Mus musculus with 40 samples.

Results

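The RNA levels of 6 genes of the liver X receptor (LXR) system were followed in mouse duodenum, post-anastomotic ileum and liver. The genes were the receptors *Nr1h3* (LXRα) and *Nr1h2* (LXRβ), the retinoid X receptors *Rxra* and *Rxrb*, the corepressor *Ncor1* and the coactivator *Ncoa1*. They were chosen by name, and all 6 were among the 15958 genes of the deposited table. The 40 libraries came from wild type C57BL/6 males operated on at 8 weeks of age. Sham vehicle mice had a sham operation, whereas SBR vehicle and SBR WUSTL0717 mice had a small bowel resection (SBR), labelled as 50 to 60% of the bowel. The sources differ here, since the methods of the study describe a more extensive resection than the labels. Dosing began 3 weeks after surgery and lasted 7 weeks, with daily vehicle or the LXR agonist WUSTL0717 at 30 mg/kg, and the series held no sham group given WUSTL0717. Duodenum and ileum each had 3 sham vehicle, 4 SBR vehicle and 4 SBR WUSTL0717 libraries, and liver had 5, 8 and 5. The ileum was the segment beyond the surgical join, and the liver sample was the median right lobe. Whether libraries with the same number in duodenum, ileum and liver came from the same mouse is not given in the labels, so p-values measure the spread between the libraries.

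LXRs are nuclear receptors that bind oxysterols, which are oxidised forms of cholesterol. They sit on DNA as heterodimers with an RXR, on direct repeats of an AGGTCA-like element. Without ligand, corepressors of the NCOR family hold histone deacetylases at the target gene, and on ligand binding they give way to coactivators such as NCOA1, also known as SRC-1. LXRα is known for high levels in liver, intestine, adipose tissue and macrophages, whereas LXRβ is found in most tissues. Targets such as *Abca1* and *Scd1* carry cholesterol efflux and fatty acid synthesis. The question here was whether resection or the agonist was accompanied by changes in the RNA of the receptor machinery itself.

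Values were log2 TPM, a transcript abundance per gene length and per library. The authors had corrected them for 2 batches, of which 1 held all intestinal libraries and the other all liver libraries. After this correction 99.8% of 15884 genes had batch means within 1 log2 unit of each other, and *Sis*, which encodes the gut brush border enzyme sucrase-isomaltase, had a liver mean of 4.74. Tissue and batch cannot be told apart, so levels were compared within the intestine or within the liver only. Ileal marker genes averaged 4.65 to 5.82 in the ileal groups and 0.58 to 0.73 in the duodenal groups, and duodenal markers averaged 4.91 to 5.42 and 2.15 to 2.51, as the labels say. Markers of pancreatic acinar cells varied between 1.75 and 7.68 among the duodenal libraries. They were at 0 or below in every ileal library, and stood at 7.88 in SBR vehicle liver 7 against 1.92 to 2.07 in the other livers. Library medians ran from 2.13 to 3.09 in duodenum, from 3.18 to 3.82 in ileum and from 3.05 to 3.77 in liver. SBR WUSTL0717 ileum 2 stood apart from the other 10 ileal libraries. It had the highest ileal median (3.82), hepatocyte markers at 9.43 against 6.57 to 7.78, and endothelial markers at 5.40 against 3.68 to 4.54. The number of reads per library is unknown.

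The median log2 fold change over all genes tested was not 0 everywhere. It was -0.36 for SBR vehicle against sham in duodenum, 0.25 for SBR vehicle and 0.27 for SBR WUSTL0717 against sham in liver, and -0.52, -0.98 and -0.95 for duodenum against ileum in the sham, resected vehicle and resected WUSTL0717 groups in turn. Where this matters, a member's value is also given relative to that median. In bulk tissue, fewer cells of a type and less RNA per cell cannot be told apart.

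Few of the 6 genes passed the genome-wide test (limma, Benjamini-Hochberg adjusted p under 0.05) within a tissue. In duodenum, SBR vehicle against sham called 0 of 6 members, with 0 at an unadjusted p under 0.05 and 0 with groups that did not overlap, beside 0, 16.1 and 9.66% of 15069 genes. In duodenum, WUSTL0717 against vehicle after SBR called 0 of 6, with 0 at an unadjusted p under 0.05 and 0 not overlapping, beside 0.272, 5.28 and 3.16% of genes. In ileum, SBR against sham gave 0, 0 and 0 members by these 3 rules, beside 0.349, 8.45 and 9.5% of 15766 genes. In ileum, WUSTL0717 against vehicle called 0 members, with 1 at an unadjusted p under 0.05 and 0 not overlapping, beside 0.0698, 6.82 and 3.83%. In liver, SBR against sham called 1 member, which was also the 1 at an unadjusted p under 0.05, and 0 did not overlap, beside 41.9, 50.1 and 17.2% of 15896 genes. In liver, WUSTL0717 against vehicle called 0 members, with 2 at an unadjusted p under 0.05 and 0 not overlapping, beside 4.12, 17.2 and 1.54%. Both comparisons within a tissue share the SBR vehicle libraries. Treated SBR mice against sham gave 0 called members in duodenum (2 at an unadjusted p under 0.05), 0 in ileum (1) and 1 in liver (3). The background for this last comparison was 0.737, 2.16 and 28.7% called and 16.8, 14.1 and 43.9% at an unadjusted p under 0.05. In that comparison 1, 1 and 2 members did not overlap, beside 18.4, 13.2 and 28.1% of genes. With 6 members, 1 gene is a large share, and counts of 0 to 3 were not read as a departure from the background in either direction. The liver count of 1 after SBR rose to 4 without SBR vehicle liver 2 and to 2 without SBR vehicle liver 3, the livers with the lowest *Nr1h2* of that group. The description below rests on the single genes and on their ratios within a library.

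**Figure D1:**
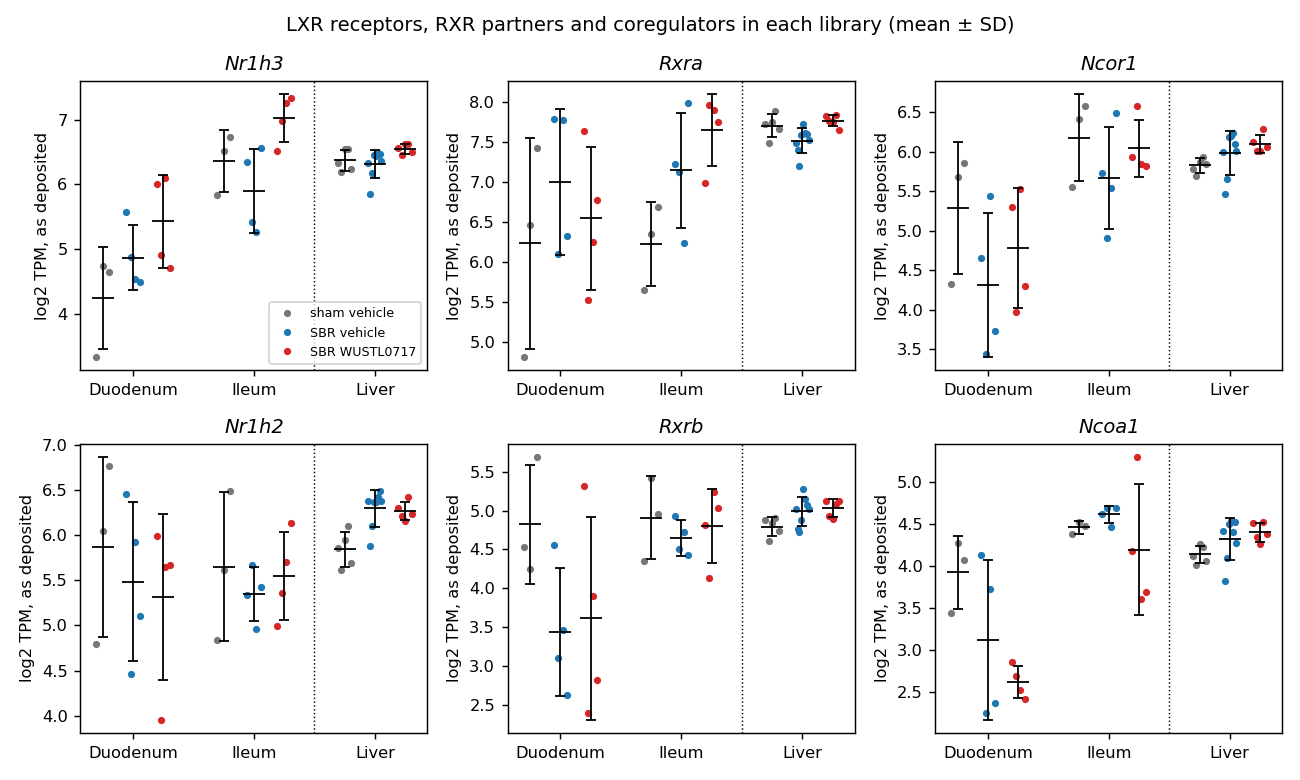
Log2 TPM of the 6 genes in each library (points), with the mean and SD of each group (black), for sham vehicle, SBR vehicle and SBR WUSTL0717. The dotted line parts the 2 batches, across which levels were not compared. Within the intestine, *Nr1h3* in the sham duodenum (3.33 to 4.74) lay below the sham ileum (5.83 to 6.74).

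LXRα, the product of *Nr1h3* (chr2:91184061-91202834, minus strand, GRCm38), is the receptor whose own gene is a known LXR target in some cells. The gene overlaps the transcript *Gm13783*, which is not among the deposited genes, by 6873 bases on the same strand. Reads of that stretch cannot be assigned by strand. In ileum, log2 TPM of *Nr1h3* was 5.83, 6.51 and 6.74 in sham, 6.34, 5.41, 5.27 and 6.55 in SBR vehicle, and 6.52, 6.97, 7.26 and 7.34 in SBR WUSTL0717 libraries. Of the treated libraries, 3 lay above every vehicle library, and the lowest treated value of 6.52 lay just under the highest vehicle value of 6.55. The group means were 5.89 ± 0.65 (SD, n = 4) with vehicle and 7.02 ± 0.37 (SD, n = 4) with WUSTL0717. The log2 fold change was 1.13 (standard error 0.36, 95% interval 0.35 to 1.90), or 2.18-fold (1.27 to 3.74). Its unadjusted limma p was 0.00811 and its adjusted p 0.539, so it was not called among 15766 genes, although 98.3% of genes had a lower fold change. The exact two-sided permutation p was 0.0571, where 4 libraries against 4 cannot go below 0.0286. When 1 library at a time was left out, the fold change stayed between 0.92 and 1.35. Enterocyte markers, all 8 present in the table and none at 0, moved in the same direction, with a mean of 5.99 to 6.77 in vehicle and 6.77 to 7.22 in treated ileum and a summed level of 9.85 to 11.22 and 11.28 to 11.90. Their part in the *Nr1h3* difference was not tested.

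After SBR alone the ileal *Nr1h3* value was -0.47 (95% interval -1.31 to 0.37, limma adjusted p = 0.895) against sham, so an increase of more than 0.37 lay outside the interval. Treated SBR ileum stood 0.66 above sham (interval -0.18 to 1.50, limma adjusted p = 0.503).

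In duodenum, *Nr1h3* was 3.33, 4.74 and 4.65 in sham, 5.57, 4.88, 4.53 and 4.49 in SBR vehicle, and 6.01, 4.90, 6.09 and 4.71 in SBR WUSTL0717 libraries. The treated libraries fell into a higher and a lower pair, and the lower pair lay within the vehicle range. WUSTL0717 against vehicle was at 0.56 on the log2 scale (standard error 0.49, interval -0.49 to 1.61, limma adjusted p = 1), and SBR against sham gave 0.63 (interval -0.50 to 1.76, adjusted p = 0.535). Leaving out 1 library moved these values between 0.34 (without SBR WUSTL0717 duodenum 3) and 0.80, and between 0.18 (without sham duodenum 1) and 0.88. Against sham, treated SBR duodenum was at 1.19 (interval 0.06 to 2.32, limma adjusted p = 0.283). The response to WUSTL0717 was 0.57 larger in ileum than in duodenum, with an interval of -0.69 to 1.82 and an exact permutation p of 0.436 over 4900 arrangements of treatment within region. In a limma fit of this difference on all intestinal libraries, 0 of 6 members were called and 0 had an unadjusted p under 0.05, beside 0.0251 and 3.33% of 15923 genes. These data therefore do not separate the ileal from the duodenal response of any of the 6 genes.

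In liver, *Nr1h3* was 6.34, 6.20, 6.54, 6.54 and 6.24 in sham and 6.56, 6.45, 6.63, 6.62 and 6.50 in SBR WUSTL0717 libraries, and ran from 5.85 through a median of 6.40 to 6.48 over the 8 SBR vehicle libraries. All 5 treated livers lay above 5 of the 8 vehicle livers, and the groups overlapped only between 6.45 and 6.48. WUSTL0717 against vehicle gave 0.23 (standard error 0.10, interval 0.02 to 0.45, unadjusted limma p = 0.0354, adjusted p = 0.242), or 1.18-fold, and an exact permutation p of 0.0256. SBR against sham gave -0.05 (interval -0.27 to 0.16, adjusted p = 0.711) on the deposited scale, while the median gene rose by 0.25. With each library centred on its own median the values became -0.36 for SBR (limma adjusted p = 7.69e-06) and 0.24 for WUSTL0717 (adjusted p = 0.00236), and both were called. Whether *Nr1h3* was called in liver thus depended on the scaling of the libraries.

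LXRβ is encoded by *Nr1h2* (chr7:44549616-44553951, minus strand, GRCm38). In sham liver, *Nr1h2* was at 5.86, 5.61, 5.94, 6.10 and 5.69. In SBR vehicle liver it ran from 5.87 through a median of 6.37 to 6.49, and in SBR WUSTL0717 liver it was at 6.30, 6.21, 6.16, 6.42 and 6.24. All 5 treated livers and 7 of the 8 vehicle livers lay above every sham liver. SBR vehicle liver 2 was the exception, and SBR vehicle liver 3 lay only just above the highest sham liver. SBR against sham raised it by 0.45 on the log2 scale (standard error 0.105, interval 0.23 to 0.67, limma adjusted p = 0.00194), or 1.37-fold, with an exact permutation p of 0.00622 and a value of 0.21 relative to the median gene. It remained called at 0.15 with libraries centred on their medians (limma adjusted p = 0.0155). WUSTL0717 did not shift it further, at -0.03 against vehicle with an interval of -0.25 to 0.19 (adjusted p = 0.940). Treated SBR against sham was 0.42 (standard error 0.12, adjusted p = 0.0128), and this call was lost with centred libraries, at 0.12 (limma adjusted p = 0.110). In liver, all 7 fibroblast and stellate cell markers were present and none was at 0. Their mean ran from 3.24 to 3.75 in sham, from 4.93 to 5.80 in SBR vehicle and from 4.30 to 5.27 in SBR WUSTL0717 libraries, and their summed level from 6.13 to 6.76, from 8.30 to 9.15 and from 7.40 to 8.43. Their part in the *Nr1h2* difference was not tested.

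In intestine *Nr1h2* was called in no comparison. Duodenal values spread from 3.96 to 6.77 and ileal values from 4.84 to 6.49 over all libraries. WUSTL0717 against vehicle gave -0.17 in duodenum (interval -1.46 to 1.13) and 0.20 in ileum (interval -0.60 to 0.99), and SBR against sham gave -0.38 (interval -1.78 to 1.02) and -0.30 (interval -1.16 to 0.56). These intervals are too wide to exclude a doubling or a halving of the RNA in duodenum.

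**Figure D2:**
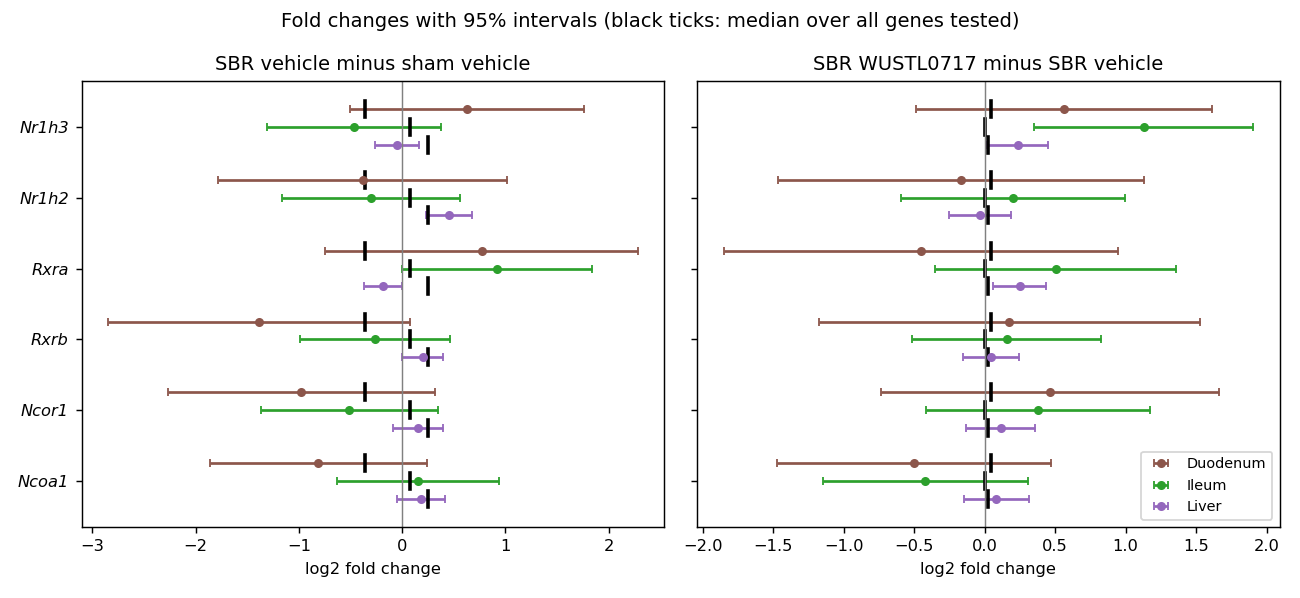
Log2 fold changes of the 6 genes with 95% intervals (limma) in duodenum, ileum and liver, for SBR vehicle minus sham vehicle (left) and SBR WUSTL0717 minus SBR vehicle (right). Black ticks mark the median over all genes tested; ileal *Nr1h3* at 1.13 was the largest response to WUSTL0717 among the 6 genes, and the liver intervals were the narrowest.

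The sequences before 1 start of each receptor gene are shown, together with that before the second *Rxra* start, the member promoter with AGGTCA elements. They are the 250 bases before a RefSeq transcription start (GRCm38.p6), given 5′ to 3′ on the gene's own strand, and capitals mark AGGTCA or CCGGAAG in either orientation, where TGACCT and CTTCCGG are the reverse complements. AGGTCA is the element bound by RXR heterodimers, and CCGGAAG is a core recognised by ETS factors that was chosen after the *Nr1h2* sequence had been seen. Capitals cover these letters alone, and a match is a description of the sequence. The *Nr1h3* and *Rxra* stretches lie within the gene positions given in this text, and each of these genes has another RefSeq entry.
*Nr1h3* (chr2:91195117-91195366, minus strand): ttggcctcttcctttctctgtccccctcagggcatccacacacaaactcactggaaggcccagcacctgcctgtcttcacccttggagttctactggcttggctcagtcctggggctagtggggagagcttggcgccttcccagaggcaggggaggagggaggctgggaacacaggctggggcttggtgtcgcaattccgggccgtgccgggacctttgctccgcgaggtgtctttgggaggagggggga
*Nr1h2* (chr7:44553966-44554215, minus strand): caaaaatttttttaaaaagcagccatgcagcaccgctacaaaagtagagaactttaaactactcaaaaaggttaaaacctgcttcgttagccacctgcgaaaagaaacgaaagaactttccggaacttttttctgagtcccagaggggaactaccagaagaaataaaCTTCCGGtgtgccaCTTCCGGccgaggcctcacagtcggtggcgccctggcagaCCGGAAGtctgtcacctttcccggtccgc
*Rxra*, second start (chr2:27709042-27709291, plus strand): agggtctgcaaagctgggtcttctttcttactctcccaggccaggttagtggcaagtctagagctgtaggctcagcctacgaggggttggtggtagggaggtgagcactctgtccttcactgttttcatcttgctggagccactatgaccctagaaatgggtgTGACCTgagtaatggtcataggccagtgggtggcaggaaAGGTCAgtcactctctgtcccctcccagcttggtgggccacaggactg
The *Nr1h3* stretch held neither motif and was 63.2% G and C. The *Nr1h2* stretch held 3 copies of CCGGAAG and was 48.4% G and C. At least 3 copies were found in 0.101% of the 32851 promoters of the RefSeq table and at least 1 in 6.91%. The *Rxra* stretch held 2 copies of AGGTCA in opposite orientations. At least 2 were found in 1.36% of promoters and at least 1 in 14.02%. The 6 genes had 10 entries in the table, and no other entry held AGGTCA. Each of the *Ncor1* and *Rxrb* genes had 1 entry with a single CCGGAAG.

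RXRα, from *Rxra* (chr2:27676440-27762957, plus strand, GRCm38), is the partner of LXR and of the PPARs, FXR and PXR in liver and gut. In ileum its log2 TPM was 5.65, 6.35 and 6.69 in sham, 7.23, 7.13, 6.24 and 7.99 in SBR vehicle, and 6.99, 7.96, 7.90 and 7.76 in SBR WUSTL0717 libraries. All 4 treated libraries and 3 of the 4 vehicle libraries lay above every sham library, where 13.2% of all genes did not overlap between treated and sham ileum. SBR against sham gave 0.92 (standard error 0.42, interval -0.00 to 1.84, limma adjusted p = 0.594) and WUSTL0717 against vehicle 0.50 (interval -0.35 to 1.36, adjusted p = 0.916). The step from sham to treated SBR ileum was 1.42 (standard error 0.42, interval 0.50 to 2.34), with an unadjusted limma p of 0.00563 and an adjusted p of 0.122. Between sham and treated ileum, fibroblast and stellate markers had a mean of 3.76 to 4.65 and 4.70 to 5.49, and ileal markers 4.62 to 4.71 and 5.64 to 6.13. Lymphocyte markers ran the other way, at 2.55 to 3.23 and 1.65 to 2.78. The part of these markers in the *Rxra* difference was not tested. In duodenum *Rxra* ranged from 4.82 to 7.42 in sham, from 6.11 to 7.79 in SBR vehicle and from 5.53 to 7.64 in SBR WUSTL0717 libraries, and the groups overlapped throughout. In liver it was 7.73, 7.49, 7.76, 7.89 and 7.66 in sham and 7.82, 7.77, 7.76, 7.84 and 7.66 in treated libraries, and ran from 7.20 through a median of 7.56 to 7.73 in SBR vehicle. The vehicle livers had the lowest mean, and the groups overlapped. WUSTL0717 against vehicle gave 0.25 (standard error 0.09, interval 0.06 to 0.43, unadjusted limma p = 0.0120, adjusted p = 0.137), with an exact permutation p of 0.00622. SBR against sham gave -0.19 (interval -0.37 to 0.00, adjusted p = 0.102). With libraries centred on their medians both were called, at 0.25 (limma adjusted p = 0.00877) and -0.49 (limma adjusted p = 4.58e-06).

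*Rxrb* (chr17:34031812-34038399, plus strand, GRCm38) encodes RXRβ, the more widespread isotype. In duodenum its values were 4.53, 4.25 and 5.69 in sham and 4.56, 3.10, 3.46 and 2.63 in SBR vehicle libraries, so 3 of the 4 resected libraries lay below every sham library. Of these, SBR vehicle duodenum 2 and 4 stood apart as whole libraries, with medians of 2.17 and 2.13 and 420 and 328 genes at or below 0, against medians of 2.62 to 3.09 and 75 to 156 such genes in sham. Their part in the *Rxrb* value was not tested beyond leaving out 1 library at a time, which gave -1.76 to -0.95. The log2 fold change was -1.39 (standard error 0.68, interval -2.85 to 0.08, limma adjusted p = 0.326), or -1.02 relative to the median gene. Treated duodenum spread from 2.40 to 5.32 and differed from vehicle by 0.18 (interval -1.18 to 1.53). In ileum *Rxrb* lay between 4.13 and 5.41 in all 11 libraries, at -0.26 for SBR (interval -0.99 to 0.46) and 0.15 for WUSTL0717 (interval -0.51 to 0.82). In liver it was at 0.20 after SBR (interval -0.00 to 0.40, limma adjusted p = 0.104), under the median gene at 0.25, and its sign turned with centred libraries (-0.11) and after quantile normalization (-0.039), both uncalled. It was called higher with library weights (0.25, limma adjusted p = 0.00292) and without SBR vehicle liver 2 (0.23, limma adjusted p = 0.0354) or 3 (0.23, limma adjusted p = 0.0454). With WUSTL0717 it was at 0.04 (interval -0.16 to 0.24), and at -0.0056 after quantile normalization.

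The corepressor *Ncor1* (chr11:62316426-62458541, minus strand, GRCm38) overlaps *Ttc19* on the opposite strand by 12026 bases. Whether reads were counted by strand is not given in the sources used here. The authors counted unambiguous reads only, so it is unknown whether reads of the overlap were assigned or dropped. Duodenal *Ncor1* was 4.33, 5.68 and 5.86 in sham, 4.65, 3.43, 5.44 and 3.73 in SBR vehicle, and 5.30, 3.97, 5.53 and 4.30 in SBR WUSTL0717 libraries, and all groups overlapped. Its fold change after SBR was -0.98 in duodenum (interval -2.27 to 0.32, limma adjusted p = 0.409) and -0.51 in ileum (interval -1.37 to 0.34), and with WUSTL0717 it was 0.46 (interval -0.74 to 1.66) and 0.38 (interval -0.42 to 1.17). In liver *Ncor1* was at 0.16 after SBR (interval -0.09 to 0.40, limma adjusted p = 0.297), which is -0.09 relative to the median gene. This direction depended on the processing, since *Ncor1* was at -0.15 and called lower with centred libraries (limma adjusted p = 0.00313) and at -0.067 after quantile normalization (limma adjusted p = 0.143). In the other direction, it was called higher with library weights (0.26, limma adjusted p = 0.00143) and without SBR vehicle liver 2 (0.23, limma adjusted p = 0.0383). With WUSTL0717 it was at 0.11 (interval -0.13 to 0.36), and was called higher at 0.12 with centred libraries (limma adjusted p = 0.0335).

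The coactivator *Ncoa1* (chr12:4247362-4477182, minus strand, GRCm38) encodes a p160 coactivator with a domain that binds ligand-occupied receptors. Duodenal *Ncoa1* was 3.44, 4.27 and 4.07 in sham, 4.13, 2.25, 3.72 and 2.37 in SBR vehicle, and 2.86, 2.68, 2.52 and 2.41 in SBR WUSTL0717 libraries. All 4 treated libraries lay below every sham library, in a comparison where 18.4% of all genes did not overlap, whereas the vehicle libraries spread over both ranges. The vehicle values of 2.25 and 2.37 were those of SBR vehicle duodenum 2 and 4, the libraries with low medians named under *Rxrb*. With group means removed, duodenal *Ncoa1* correlated with the library median at r = 0.90. Library medians ran from 2.38 to 2.89 in treated and from 2.62 to 3.09 in sham duodenum. Macrophage markers, all 7 present and none at 0, had a mean of 4.74 to 6.06 in sham, 3.17 to 4.76 in SBR vehicle and 3.47 to 4.58 in treated duodenum, with a summed level of 8.17 to 10.14, 6.45 to 7.93 and 6.75 to 8.24. Enterocyte markers, all 8 present and none at 0, had a mean of 6.27 to 7.21, 7.35 to 7.78 and 7.46 to 7.95, with a summed level of 12.32 to 13.55, 13.12 to 13.52 and 13.85 to 14.73. Their part in the *Ncoa1* difference was not tested. Treated SBR duodenum against sham gave -1.31 (standard error 0.49, interval -2.36 to -0.27, limma adjusted p = 0.230), or -0.99 relative to the median gene at -0.32. The steps of SBR against sham, at -0.81 (interval -1.86 to 0.24), and of WUSTL0717 against vehicle, at -0.50 (interval -1.47 to 0.47), were not called. With library weights the SBR value was -1.41 and called (limma adjusted p = 0.0319), and without 1 library it ran from -1.15 (without SBR vehicle duodenum 1) to -0.52 (without SBR vehicle duodenum 2), uncalled. In ileum *Ncoa1* lay between 4.38 and 4.69 in all sham and SBR vehicle libraries and between 3.61 and 5.30 with WUSTL0717, where the highest value was that of SBR WUSTL0717 ileum 2. In liver *Ncoa1* was at 0.18 after SBR (interval -0.05 to 0.42, limma adjusted p = 0.187), or -0.06 relative to the median gene. With centred libraries it was at -0.12 and called lower (limma adjusted p = 0.0283), and after quantile normalization at -0.097 (limma adjusted p = 0.0707). It was called higher, by contrast, with library weights (0.29, limma adjusted p = 0.000819) and without SBR vehicle liver 2 (0.26, limma adjusted p = 0.0150). With WUSTL0717 it was at 0.08 (interval -0.15 to 0.31).

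Ratios taken within a library do not change when the deposited values of a library are shifted as a whole. For each pair the difference of the log2 values was compared between groups with an exact two-sided permutation test, and the p-values were adjusted over 18 tests (3 pairs, 3 tissues, 2 comparisons). The batch correction can shift each gene within a batch and rescale its spread, so whether a ratio was above or below 0 was not read, and the size of a difference between groups holds for the corrected values.

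The balance of the receptors moved in liver. *Nr1h3* minus *Nr1h2* was 0.53 ± 0.07 (SD, n = 5) in sham, 0.02 ± 0.06 (SD, n = 8) in SBR vehicle and 0.29 ± 0.10 (SD, n = 5) in SBR WUSTL0717 liver. The groups did not overlap, with ranges of 0.45 to 0.60, -0.05 to 0.10 and 0.21 to 0.47 in that order, apart from the sham and treated groups, which met at 0.45 to 0.47. SBR against sham changed the ratio by -0.51 and WUSTL0717 against vehicle by 0.26 in the other direction. Each had an exact permutation p of 0.000777, the smallest these group sizes allow, and an adjusted p of 0.00466. Without 1 library at a time, SBR vehicle 7 included, the differences stayed between -0.53 and -0.49 and between 0.22 and 0.28. As a background, 27.1% of genes had a ratio to *Nr1h2* that did not overlap between SBR and sham liver, but 3.77% had one that did not overlap between treated and vehicle liver.

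The RXR pair behaved alike in liver. *Rxra* minus *Rxrb* was 2.91 ± 0.05 (SD, n = 5) in sham, 2.53 ± 0.09 (SD, n = 8) in SBR vehicle and 2.73 ± 0.13 (SD, n = 5) in SBR WUSTL0717 liver. SBR changed this ratio by -0.38 without overlap (exact permutation p = 0.000777, adjusted p = 0.00466), beside 18.3% of genes by their ratio to *Rxrb*. WUSTL0717 changed it by 0.20 with overlapping groups (exact permutation p = 0.00777, adjusted p = 0.0350). *Ncoa1* minus *Ncor1* did not follow, at 0.03 for SBR (exact permutation p = 0.559) and -0.03 for WUSTL0717 (exact permutation p = 0.503). The fibroblast and stellate markers given above moved in the opposite direction to both ratios in liver. The mean of 8 hepatocyte markers, none at 0, also moved, from 7.78 to 8.25 in sham to 6.75 to 7.81 in SBR vehicle and 7.76 to 8.21 in treated liver, with a summed level of 11.34 to 11.83, 10.46 to 11.52 and 11.34 to 11.87. Kupffer cell markers, all 5 present and none at 0, had a mean of 2.82 to 3.20 in sham, 1.77 to 3.55 in SBR vehicle and 2.89 to 3.49 in treated liver, with a summed level of 5.10 to 5.52, 4.04 to 5.94 and 5.40 to 5.87. Of these 5, 1 was called lower after SBR (median -0.37 beside 0.25 over all genes, of which 41.9% were called), and 2 were called higher with WUSTL0717 (median 0.56 beside 0.02, 4.12% called). The mean of 7 general macrophage markers, none at 0, was 5.04 to 5.48, 5.27 to 6.27 and 5.76 to 6.13 in the same order, with a summed level of 8.29 to 8.77, 8.79 to 9.74 and 9.10 to 9.54. The part of these cell types in the ratios was not tested.

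In ileum *Nr1h3* minus *Nr1h2* was 0.54 ± 0.64 (SD, n = 4) with vehicle and 1.47 ± 0.18 (SD, n = 4) with WUSTL0717, and every treated library lay above every vehicle library. The difference was 0.93 (exact permutation p = 0.0286, the smallest possible, adjusted p = 0.0857), beside 1.72% of genes whose ratio to *Nr1h2* did not overlap. Dropping single libraries moved it from 0.66 (without SBR vehicle ileum 2) to 1.12 (without SBR vehicle ileum 4). In duodenum the corresponding difference was 0.73 with overlapping groups (exact permutation p = 0.257). *Rxra* minus *Rxrb* rose from a mean of 1.41 in sham to 3.57 in SBR vehicle duodenum without overlap, but the difference of 2.15 had an exact permutation p of 0.0286 and an adjusted p of 0.0857, and 24.8% of genes had a ratio to *Rxrb* that did not overlap. The duodenal enterocyte and macrophage markers given beside *Ncoa1* moved between these groups too, and their part in the ratio was not tested. In ileum this ratio was 1.18 higher after SBR (exact permutation p = 0.0857). With WUSTL0717, *Ncoa1* minus *Ncor1* was lower by 0.96 in duodenum and by 0.80 in ileum, each with an exact permutation p of 0.0857 and an adjusted p of 0.154. Thus 4 of the 18 ratio tests passed after adjustment, all in liver. The smallest possible exact permutation p was 0.000777 for the liver group sizes and 0.0286 for the intestinal ones. Intestinal ratios at that floor still had an adjusted p of 0.0857, so this count was not read as a difference between tissues.

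**Figure D3:**
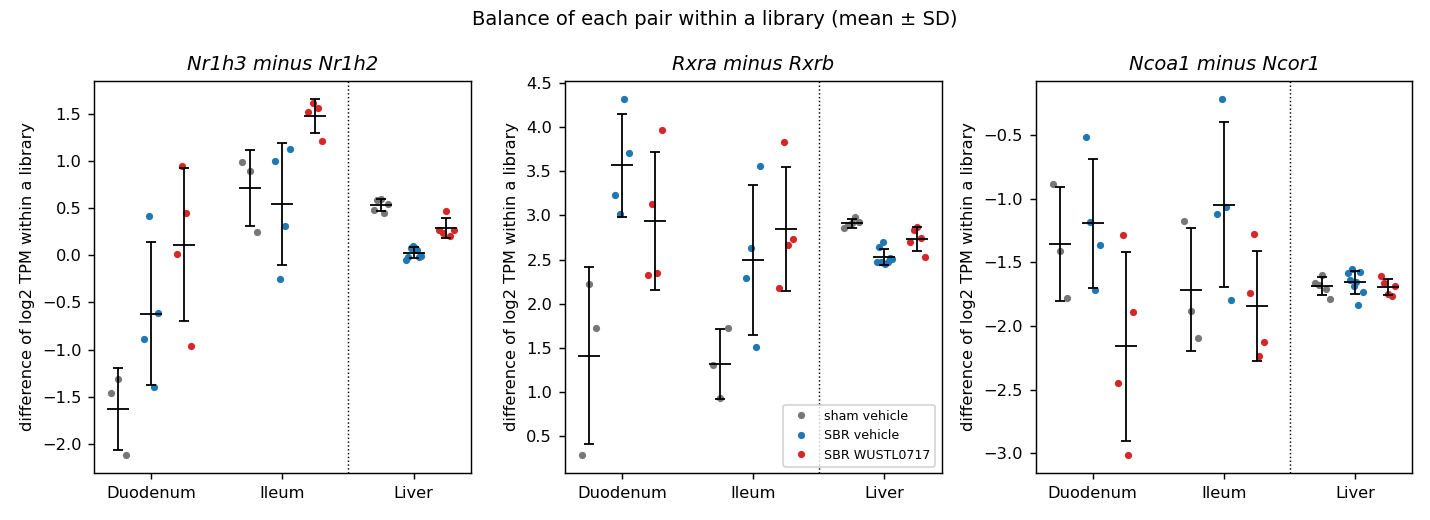
Difference of log2 TPM within each library (points) for the receptor pair, the RXR pair and the coactivator and corepressor, with the mean and SD of each group (black); the dotted line parts the 2 batches. In liver the receptor difference fell from 0.53 in sham to 0.02 after SBR and stood at 0.29 with WUSTL0717, whereas the coregulator difference was -1.69, -1.66 and -1.69.

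Duodenum and ileum belonged to the same batch and could be compared within each group. In sham mice *Nr1h3* was lower in duodenum than in ileum by 2.12 (standard error 0.49, interval 1.09 to 3.15 lower, limma adjusted p = 0.00585), and the 3 duodenal libraries lay below the 3 ileal ones. Relative to the median gene the difference was -1.60, and 1.88% of genes had a lower value. It was the 1 member called of 6, beside 14.6% of 15923 genes, and 2 members, *Nr1h3* and *Ncoa1*, did not overlap, beside 37.9%. The other 5 genes differed by -0.89 to 0.22 in sham. The exact permutation p was 0.1, the smallest for 3 libraries against 3. Without 1 library at a time the difference stayed between -2.38 and -1.67, and with centred libraries it was -1.67 and still called. In an unmoderated fit it was not called (adjusted p = 0.103, same difference). The mean of the acinar markers ran from 3.62 to 7.46 in sham duodenum, with a summed level of 6.56 to 10.47, and all 7 were at 0 in sham ileum. Their part in the regional difference was not tested.

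In SBR vehicle mice *Nr1h3*, *Ncor1* and *Ncoa1* were called lower in duodenum, by 1.03, 1.36 and 1.50 (limma adjusted p = 0.0461, 0.0219 and 0.00363). In SBR WUSTL0717 mice the same 3 genes were called lower, by 1.59, 1.27 and 1.58 (adjusted p = 0.00405, 0.0314 and 0.00260). These 3 of 6 stood beside 56.9 and 55.9% of all genes. The count was 1 in SBR vehicle mice without ileum 4, duodenum 2 or duodenum 4 of that group, and 5 in SBR WUSTL0717 mice without duodenum 1. The groups of *Ncoa1* did not overlap with vehicle, and those of *Nr1h3*, *Ncor1* and *Ncoa1* did not overlap with WUSTL0717, beside 43.4 and 47.8% of genes. Relative to the median gene, *Nr1h3* was at -0.05 in SBR vehicle and -0.65 in SBR WUSTL0717 mice. With centred libraries 0 of the 6 members were called in either resected group, so in resected mice the regional difference of these genes was not separated from that of the library as a whole. *Nr1h2* and *Rxra* were not called in any group, at 0.22, 0.14 and -0.23 and at 0.01, -0.14 and -1.10 in the same order of groups (sham, SBR with vehicle, SBR with WUSTL0717). *Nr1h3* minus *Nr1h2* was 1.55 lower in duodenum than in ileum over the 11 libraries of each, with a mean of -0.63 ± 0.96 against 0.93 ± 0.60 (SD). Its exact permutation p was 0.000143 over 98000 arrangements of region within groups, and 0.000429 after adjustment over the 3 pairs, in a test chosen after the values had been seen. Relative to the median gene, *Nr1h2* stood 0.74, 1.11 and 0.71 higher in duodenum in the same order of groups. The ratio of the median gene to *Nr1h2* was therefore lower in duodenum too, and the share of genes with such a difference was not computed. *Rxra* minus *Rxrb* differed by 0.45 (exact permutation p = 0.175) and *Ncoa1* minus *Ncor1* by -0.07 (exact permutation p = 0.770).

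**Figure D4:**
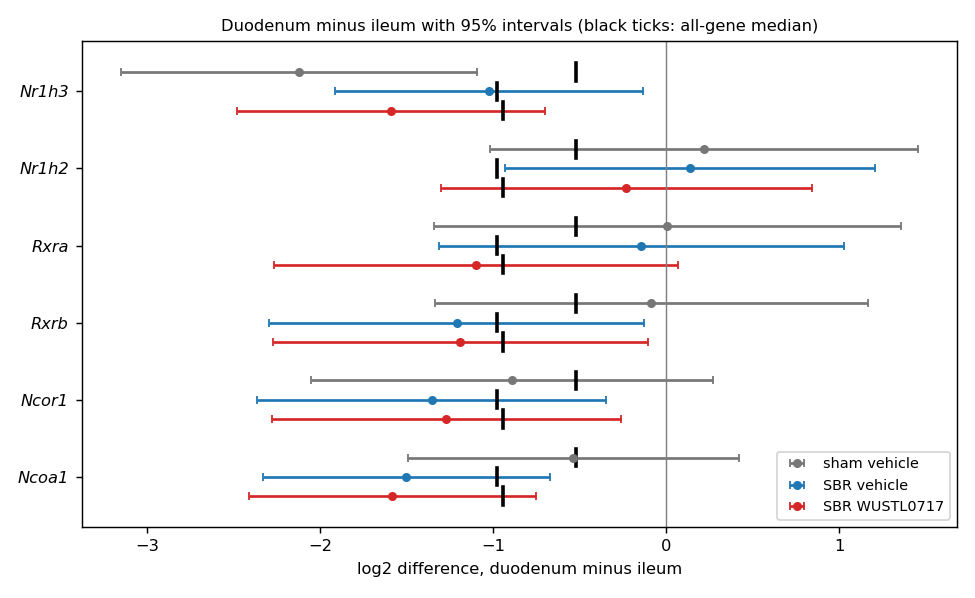
Duodenum minus ileum in log2 TPM for each gene with 95% intervals (limma), by surgery and treatment; black ticks mark the median over all genes. *Nr1h3* in sham mice, at -2.12, lay furthest from its tick at -0.52.

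Other genes of the pathway gave the setting of these values. Of 11 LXR targets tested, WUSTL0717 against vehicle called 2 higher in duodenum, beside 0.272% of all genes called, with a list median of 2.06 beside 0.04 over all genes. In ileum it called 5 higher, beside 0.0698% of all genes, with a median of 2.30 beside 0.00. *Scd1*, a fatty acid desaturase, rose by 6.34 (limma adjusted p = 0.000994) and the cholesterol exporter *Abca1* by 3.55 (adjusted p = 0.00975) in duodenum. In ileum *Abca1* rose by 2.79 (adjusted p = 0.0148), *Scd1* by 3.09 (adjusted p = 0.0198), the sterol transporter *Abcg5* by 2.68 (adjusted p = 0.0203) and *Abcg1* by 2.30 (adjusted p = 0.0274). In liver 0 of the 11 were called with WUSTL0717 and 2 had an unadjusted p under 0.05, beside 4.12 and 17.2% of all genes. There 10 of the 11 were above 0, with a median of 0.22 beside 0.02, and *Pltp*, a phospholipid transfer protein, and *Abcg5* had the smallest p, at 0.68 and 0.47 (limma adjusted p = 0.0729 and 0.125). The receptor RNA at 1.13 in ileum was thus a smaller value than those of its called targets. After SBR alone 0 targets were called in duodenum (0 at an unadjusted p under 0.05), beside 0 and 16.1% of all genes. In ileum 0 were called (3 at an unadjusted p under 0.05), beside 0.349 and 8.45%, and *Scd1* was at 1.80 and *Abca1* at -1.36. In liver after SBR, where 41.9% of all genes were called, 2 were called higher and 2 lower, namely *Abcg1* (0.86) and *Scd1* (0.69), and the canalicular sterol transporters *Abcg5* (-0.64) and *Abcg8* (-0.63).

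Among 11 other corepressors, *Nr0b2* (SHP), which represses other nuclear receptors, was called with WUSTL0717 in liver, at 1.16 (standard error 0.30, limma adjusted p = 0.0345). It was the 1 called of 11, beside 4.12% of all genes, and 2 of the 11 were above 0, with a list median of -0.04 beside 0.02. *Nr0b2* was called in treated SBR ileum against sham (2.17, limma adjusted p = 0.0174), as the 1 called of 11 beside 2.16% of all genes. Against SBR vehicle it was at 1.65 in ileum (limma adjusted p = 0.304) and at 1.04 in duodenum (adjusted p = 0.885). In liver after SBR 7 corepressors were called higher and 1 lower, with a median of 0.44 beside 0.25 over all genes, in a comparison that called 41.9% of all genes (5954 higher and 712 lower). The ligand-dependent corepressor *Nrip1* was higher by 0.62, the complex subunit *Tbl1xr1* by 0.63 and *Lcor* by 0.56 (limma adjusted p = 0.00108, 0.00166 and 0.00191). For SBR against sham and for WUSTL0717 against vehicle, 0 corepressors were called in intestine. The shares of all genes called were 0 and 0.272% in duodenum and 0.349 and 0.0698% in ileum. *Hdac2* at -1.12 and *Sin3a* at -1.22 had the smallest p in duodenum after SBR, and *Tbl1xr1* at -0.60 and *Hdac1* at 0.42 in ileum.

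Of 12 other coactivators, 6 were called higher and 1 lower in liver after SBR, beside 41.9% of all genes called, with a median of 0.26 beside 0.25. The histone methyltransferase *Kmt2d* (0.49), the scaffold *Trrap* (0.43), the arginine methyltransferase *Carm1* (0.43) and *Ncoa6* (0.40) had the smallest p. With WUSTL0717, 0 of 12 were called in duodenum, ileum or liver, beside 0.272, 0.0698 and 4.12% of all genes. In each tissue 0 had an unadjusted p under 0.05, beside 5.28, 6.82 and 17.2%. *Ppargc1b* at 0.24 and *Ppargc1a* at 0.23, which encode PGC-1 coactivators, had the smallest p in liver. In ileum after SBR *Ppargc1a* was at -0.94 (limma adjusted p = 0.325).

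Of 15 further RXRs and RXR partners (13 of them tested in duodenum), 7 were called higher and 2 lower in liver after SBR, again beside 41.9% of all genes, with a median of 0.14 beside 0.25. *Pparg*, the fat cell PPAR, was higher by 1.16 and the retinoic acid receptor *Rarg* by 1.04 (limma adjusted p = 2.73e-07 and 2.64e-06), followed by *Ppard* (0.58) and *Thra* (0.52). WUSTL0717 called 0 of these in duodenum, ileum and liver, beside 0.272, 0.0698 and 4.12% of all genes. At an unadjusted limma p under 0.05, 1 was higher in duodenum and 2 were higher in ileum, beside 5.28 and 6.82% of all genes. In liver 5 were higher and 1 lower by that rule, beside 17.2%. The smallest p in all 3 tissues was that of *Ppara*, which drives fatty acid oxidation, at 2.16 in duodenum (adjusted p = 0.0620), 1.98 in ileum (adjusted p = 0.496) and 0.47 in liver (adjusted p = 0.0698). In ileum after SBR the bile acid receptor *Nr1h4* (FXR) was at 2.00 (adjusted p = 0.0640) and *Pparg* at 1.56 (adjusted p = 0.0843).

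Genes that make or remove LXR ligands were represented by 6 tested members. *Cyp7b1*, which removes oxysterols, fell by 2.39 in liver after SBR (standard error 0.16, limma adjusted p = 8.46e-09) and was 0.96 higher with WUSTL0717 than with vehicle (standard error 0.16, adjusted p = 0.00638). *Cyp27a1*, which makes 27-hydroxycholesterol, was 0.45 higher with WUSTL0717 in liver (adjusted p = 0.0354). These 2 were the called ones of 6 with WUSTL0717 in liver, beside 4.12% of all genes. After SBR the sulfotransferase gene *Sult2b1* (0.47) was among the genes called higher in liver, where 41.9% of all genes were called. In ileum the sterol synthesis gene *Cyp51* rose by 2.50 after SBR (standard error 0.38, adjusted p = 0.0146), as the 1 called of 6 beside 0.349% of all genes. With WUSTL0717 0 of 6 were called there, beside 0.0698%, with *Dhcr7* at 0.68 and *Cyp51* at -0.62. In duodenum 0 of 6 were called in either comparison, beside 0% (SBR) and 0.272% (WUSTL0717) of all genes. There *Sult2b1* was at 0.78 and *Cyp7b1* at -0.84 after SBR, and *Cyp51* was at -0.78 with WUSTL0717.

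The genes whose values ran most like a member's over the libraries of 1 tissue are given as a description, with Pearson's r over 11, 11 and 18 libraries that share their preparation and scaling. For *Nr1h3* they were the intestinal homeobox gene *Isx* (r = 0.947), the ceramidase gene *Acer1* (0.934) and the ribokinase gene *Rbks* (0.930) in duodenum. In ileum they were complement factor *Cfb* (0.964), the scaffold gene *Pdzk1* (0.959) and the lysosomal GTPase gene *Arl8a* (0.956). In liver they were *Isoc1* (0.968), *Hdhd5* (0.960) and *Skp1a* (0.958). The 3 ileal genes were also the first 3 when libraries were centred on their medians, whereas *Acer1* in duodenum dropped to r = 0.688 and *Skp1a* in liver to 0.785. The closest genes to *Nr1h2* were *Dda1* (0.977), *Gatad2a* (0.954) and *Dhx32* (0.989) in duodenum, ileum and liver. For *Rxra* they were *Capn1* (0.972), *Map7* (0.979) and *Eif4ebp2* (0.950), and for *Rxrb* *Arhgap39* (0.985), *Tnfrsf25* (0.914) and *Fam214b* (0.941). For *Ncor1* they were *Ptpn6* (0.945) in duodenum and *Ganc* (0.934) in ileum, and for *Ncoa1* *Rbmx* (0.979), *Rars* (0.971) and *Ilkap* (0.967). How common such values were differed between members and tissues. An r over 0.8 with *Nr1h2* was reached by 34.5% of genes in liver, and with *Nr1h3* by 10.1% in liver, 1.19% in ileum and 0.577% in duodenum.

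Among the members themselves, with group means removed, all 15 pairs were positively correlated in duodenum (median r = 0.70) and in liver (median r = 0.77), and 11 of 15 in ileum (median r = 0.35). With libraries centred on their medians the median r fell to 0.39, 0.19 and 0.10 in duodenum, liver and ileum.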

How the data were processed

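RNA of duodenum, ileum and liver was sequenced after removal of ribosomal RNA. The authors used STAR (GRCm38) and featureCounts, converted counts to TPM, corrected 2 batches with ComBat and deposited log2 TPM values. The pseudocount within the deposited log2 values is not stated and was taken as 1 for the alternatives. Read totals were not at hand, so depth and its precision are unknown. In each tissue, limma 3.58.1 (R 4.3.3) was run on genes whose mean log2 TPM reached 1 (3 groups fitted together, variance trend, Benjamini-Hochberg adjustment over all genes, threshold 0.05). Duodenum against ileum was fitted on the 22 intestinal libraries. For single members and ratios, two-sided exact permutation tests were run in Python. The limma fits were tested on simulated data. Gene positions are from GENCODE M21 and promoters from RefSeq, both GRCm38.

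The members, lists and comparisons were chosen with earlier results of these data known. Named genes were the 6 members, of each other list the called genes (at most 4 by smallest p, else the 2 with the smallest p), and the genes most alike. A few genes that this rule names are not reported here. As alternatives, the filter was dropped or set at 3, the pseudocount set at 5 or 0.1, libraries centred on their medians or quantile normalized, and the limma fit run unmoderated, untrended, with library weights, on 2 groups alone, with a replicate block, or without each library.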

Additional observations from a re-analysis of the deposited data

Results flagged for a closer look

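Of 42 groups of 4 to 8 libraries examined over the 6 members, 1 held a library far from the others, where chance gives about 1 in 20. *Ncor1* was at 6.58 in SBR WUSTL0717 ileum 2, while the other 3 libraries of the group lay between 5.82 and 5.93. The gap was 0.853 of the range of the group. This library stood apart in other measures too, with the highest median of the ileal libraries (3.82), hepatocyte markers at 9.43 against 7.09 to 7.78 and endothelial markers at 5.40 against 3.86 to 4.17 in the rest of its group, and it held the highest *Ncoa1* value of the group (5.30). Without it the ileal *Ncor1* value for WUSTL0717 against vehicle was 0.20 in place of 0.38, and it was called in neither case.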

How the results depend on the processing

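Across settings other than leaving out a library, 752 of 834 values kept their direction and side of the threshold, and 25 changed sign. Without 1 library at a time, 807 of 884 did so and 40 changed sign. Both totals include counts of members called, which have no direction and were taken as kept when equal or close to the main count. The causes were not tested. Depth is unknown, and the intestinal intervals are wide.

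With libraries centred on their medians, the members called were 5 (liver, SBR against sham), 3 (liver, WUSTL0717 against vehicle) and 0 (duodenum against ileum, either resected group). After quantile normalization these were 3, 1, 0 (SBR vehicle) and 1 (SBR WUSTL0717). With library weights 1 was called in duodenum for SBR against sham (*Ncoa1*, lower) and 1 for treated SBR against sham, 5 in liver for each of these (for SBR, *Nr1h2*, *Rxrb*, *Ncor1* and *Ncoa1* higher and *Rxra* lower), and 5 between regions with WUSTL0717. The unmoderated fit called 4 in liver for treated SBR against sham and 0 and 1 between regions in sham and SBR vehicle mice, and the fit of 2 groups alone called 4 in liver for treated SBR against sham. Without 1 library the count ran from 1 to 4 for SBR against sham in liver, and from 1 to 4 and from 2 to 5 between regions with vehicle and WUSTL0717. *Nr1h3* minus *Nr1h2* in ileum ran from -0.40 to 0.10 for SBR against sham (above 0 without SBR vehicle 2) and from 0.66 to 1.12 for WUSTL0717, where leaving out any treated library gave an exact permutation p of 0.0857.

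The values that changed sign were not called on the deposited scale. With centred libraries they were *Nr1h2* at 0.023 (duodenum, SBR), *Rxrb*, *Ncor1* and *Ncoa1* at -0.11, -0.15 and -0.12 (liver, SBR, limma adjusted p = 0.190, 0.00313 and 0.0283), *Nr1h3* at -0.12 (liver, treated against sham), *Rxrb* at 0.37 (regions, sham), *Rxra* at 0.79 (regions, SBR vehicle), *Nr1h2* at 0.65 (regions, WUSTL0717) and *Rxrb* at 0.027 (response, ileum minus duodenum). With quantile normalization they were *Rxrb*, *Ncor1* and *Ncoa1* at -0.039, -0.067 and -0.097 (liver, SBR), *Rxrb* at -0.0056 (liver, WUSTL0717), *Nr1h3* at -0.13 (liver, treated against sham), *Rxrb* at 0.32, *Rxra* at 0.29 and *Nr1h2* at 0.40 (the same 3 regional values). With library weights they were *Nr1h2* at 0.22 (duodenum, WUSTL0717), *Nr1h3* at 0.042 (liver, SBR), *Ncor1* at -0.0066 and *Ncoa1* at -0.011 (liver, WUSTL0717), *Rxra* at -0.046 (regions, sham), *Nr1h2* at -0.20 (regions, SBR vehicle) and *Ncoa1* at -0.62 (response, ileum minus duodenum).

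Leaving out 1 library turned the sign within these ranges. For SBR against sham, *Nr1h2* ran from -0.92 to 0.067 in duodenum and from -0.71 to 0.12 in ileum, *Nr1h3* from -0.096 to 0.015 in liver, and *Ncoa1* minus *Ncor1* from -0.062 to 0.40 in duodenum. For WUSTL0717 in duodenum, *Nr1h2* ran from -0.51 to 0.28 and *Rxrb* from -0.39 to 0.58. Between regions, *Nr1h2* ran from -0.23 to 0.75, *Rxra* from -0.59 to 0.71 and *Rxrb* from -0.52 to 0.20 in sham mice, *Nr1h2* from -0.19 to 0.48 and *Rxra* from -0.45 to 0.15 in SBR vehicle mice, and *Nr1h2* from -0.46 to 0.22 with WUSTL0717. The ileal minus the duodenal response ran from -0.085 to 0.71 for *Nr1h2*, from -0.43 to 0.55 for *Rxrb*, from -0.46 to 0.21 for *Ncor1* and from -0.29 to 0.37 for *Ncoa1*.

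In no comparison did every pair of libraries with the same number correlate at over 0.1 in their deviations from the group means, so the number was not taken as a pairing. Sham duodenum and ileum came nearest, where r over the 3 pairs was 0.0687 to 0.446 (mean 0.291, beside -0.146 for other numbers). With it as a replicate block, *Nr1h3* between regions in SBR vehicle mice, at -1.03, lost its call (limma adjusted p = 0.0657), *Rxrb* gained one at -1.21 in SBR vehicle mice and -1.19 with WUSTL0717 (limma adjusted p = 0.0403 and 0.0444), and *Nr1h2* in liver with WUSTL0717 turned to 0.049.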
